A study of Homo sapiens with 9 samples.

Results

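The 6 genes described here encode NQO1, a quinone reductase, and 5 enzymes of the routes that supply it and other enzymes with NADPH: PGD, TKT and TALDO1 of the pentose phosphate pathway, the malic enzyme ME1 and the isocitrate dehydrogenase IDH1. They were chosen by gene symbol, each symbol matched 1 Ensembl identifier, and they are 6 of the 58884 identifiers in the deposited files. All 6 were among the 14454 genes that passed the filter on low values and were tested. The RNA came from HK-2, an immortalised human cell line derived from the epithelium of the renal proximal tubule and grown in keratinocyte serum-free medium with bovine pituitary extract and EGF. The 9 libraries formed 3 groups of 3, all harvested at 24 h: vehicle-exposed control cells, labelled untreated, cells in PM2.5 (fine airborne particulate matter) for 24 h, and cells in lactoferrin, an iron-binding milk glycoprotein, for 6 h and then in PM2.5 for 18 h. The series text gives 1 mg/ml PM2.5 and 40 mg/ml lactoferrin, units that could not be checked here. Lactoferrin without PM2.5 was not among the groups analysed here, HK-2 is 1 cell line, and the hours in PM2.5 differ between the exposed groups, so lactoferrin and the shorter exposure cannot be told apart. The labels do not say whether replicates came from separate cultures, and the p-values therefore cover only the spread among these libraries, which could be technical.

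NADPH is the electron donor for glutathione and thioredoxin reduction and for lipid synthesis. In the cytosol it is made mainly by the oxidative branch of the pentose phosphate pathway, to which PGD belongs, and by ME1 and IDH1. TKT and TALDO1 run the non-oxidative branch, which returns pentose phosphates to glycolytic sugars, and NQO1 uses NADPH or NADH to reduce quinones to hydroquinones in a single step without a semiquinone radical. NQO1, PGD, TKT, TALDO1 and ME1 are well-known targets of the transcription factor NRF2, which KEAP1 holds low until electrophiles or oxidants modify KEAP1. NRF2 pairs with small MAF proteins at antioxidant response elements.

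Between 15313451 and 18820465 reads or fragments were assigned to genes per library, and each of the 6 genes had between 1497 and 17111 of them in every library. The first principal component (54.4% of the variance) parted control from exposed libraries, and the second (13.6%) set lactoferrin replicate 1 apart. The third (8.81%) spread the control libraries, with replicate 3 at 27, replicate 1 at -20.64 and replicate 2 at -11.15. With all libraries, 5 of the 6 genes were called for PM2.5 against control and 6 for lactoferrin then PM2.5 against control. For lactoferrin then PM2.5 against PM2.5 0 were called. Leaving out lactoferrin replicate 1 and control replicate 3 together gave 6, 5 and 0 in the same order. Of all tested genes, 2702, 2929 and 7 were called with all libraries, counting only rises against control. Without these libraries 3109 rose with PM2.5 and 12 were called for lactoferrin then PM2.5 against PM2.5. Of 12 proximal tubule markers 11 stayed below 1 FPKM (the deposited unit, fragments scaled by gene length and library depth) in every library, so the label rests on the cell line's name and not on these markers. The remaining one, CDH6, stood at 43.2 to 50.6 FPKM in control, 12.2 to 15.6 with PM2.5 and 9.69 to 15.7 with lactoferrin then PM2.5. The epithelial keratin KRT8 stood at 94.8 to 112 FPKM in control, 66.3 to 68.1 with PM2.5 and 71.1 to 94.5 with lactoferrin then PM2.5, KRT19 at 162 to 186, 139 to 143 and 134 to 174, and KRT18 at 41.6 to 56.6, 56.6 to 62.8 and 63.1 to 86.6. EPCAM lay between 17.4 and 28.6 FPKM, KRT7 at 1.26 to 1.36 in control and at at most 0.403 in exposed libraries, and CDH1 stayed at or below 0.257. All 6 distal nephron and 5 endothelial markers were below 1 FPKM, as were 5 of 6 immune markers (CD14 reached 1.39). The 6 fibroblast markers summed to 48.0 to 54.3 FPKM in control, 66.2 to 68.0 with PM2.5 and 50.7 to 55.0 with lactoferrin then PM2.5, mostly LUM (40.8 to 45.5, 63.9 to 65.4 and 48.7 to 53.2 FPKM), while COL1A1 stood at 6.16 to 7.98 in control, 1.34 to 1.51 with PM2.5 and 0.915 to 1.31 with lactoferrin then PM2.5, and PDGFRB at 0.271 to 0.458 in control and at most 0.125 in exposed libraries. DCN reached 1.08 FPKM, and COL1A2 and COL3A1 stayed at or below 0.016. Whether these shifts have a part in the results below was not tested, and in bulk RNA fewer expressing cells and less RNA per cell cannot be told apart.

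Because 5 of the 6 genes are described NRF2 targets, the promoters of all 6 were searched for the letters TGACNNNGC, the core of the antioxidant response element, on both strands. The windows ran from 250 bases before to 50 bases after each RefSeq start site (GRCh38.p14), and 7 windows matched the 6 genes, 2 of them for IDH1. The windows of 4 genes are shown up to the base before the start site, the gene with the largest rise first and then the 3 genes with a match, 5′ to 3′ on the gene's strand with matches in capitals.
NQO1 (chr16:69726561-69726810, minus strand): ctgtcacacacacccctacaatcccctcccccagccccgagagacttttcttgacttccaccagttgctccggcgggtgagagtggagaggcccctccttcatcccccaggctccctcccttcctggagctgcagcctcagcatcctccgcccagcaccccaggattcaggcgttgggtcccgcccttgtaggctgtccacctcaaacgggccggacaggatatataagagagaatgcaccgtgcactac
PGD (chr1:10398814-10399063, plus strand): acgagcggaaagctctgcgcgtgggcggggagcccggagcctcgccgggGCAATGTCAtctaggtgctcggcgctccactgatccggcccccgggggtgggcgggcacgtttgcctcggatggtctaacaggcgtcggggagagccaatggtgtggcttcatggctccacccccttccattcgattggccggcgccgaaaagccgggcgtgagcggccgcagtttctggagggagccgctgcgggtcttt
ME1 (chr6:83431052-83431301, minus strand): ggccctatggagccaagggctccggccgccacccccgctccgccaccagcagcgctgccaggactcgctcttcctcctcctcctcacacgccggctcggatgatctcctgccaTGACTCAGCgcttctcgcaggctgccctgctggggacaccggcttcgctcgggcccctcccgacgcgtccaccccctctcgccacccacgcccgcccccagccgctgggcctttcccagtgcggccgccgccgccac
IDH1 (chr2:208255072-208255321, minus strand): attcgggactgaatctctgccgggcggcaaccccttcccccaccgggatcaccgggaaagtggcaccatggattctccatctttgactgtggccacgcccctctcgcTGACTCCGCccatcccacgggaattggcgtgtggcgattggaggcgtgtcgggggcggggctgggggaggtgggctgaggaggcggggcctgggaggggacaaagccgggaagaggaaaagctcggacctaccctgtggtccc

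The PGD match, 201 bases before the start site, lies on the opposite strand. The ME1 match begins 137 bases before the start site, and its first 7 letters also fit TGANTCA, the AP-1 site, which 7.71% of all windows hold. ME1 had another match on the opposite strand, GCACCGTCA, starting 11 bases after the start site. The IDH1 match, 143 bases before the start, lies in the second of the gene's windows, and the first window held none. No match was found in the NQO1, TKT or TALDO1 windows, which says only that these letters are not there. Of all windows of this length 13.35% held a match, and by gene 16.06% did, beside 3 of the 6 genes here. A match is a description of letters and not a measured site.

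PM2.5 exposure raised 5 of the 6 genes (limma, Benjamini-Hochberg adjusted p under 0.05 over all tested genes), where 18.7% of all tested genes were called higher. In mean FPKM NQO1 rose most, at 4.6-fold, followed by ME1 at 2.3-fold, TKT at 1.72-fold, TALDO1 at 1.57-fold and PGD at 1.28-fold. IDH1 did not pass the test. The median log2 fold change of the 6 was 0.67, beside 0.003 for all tested genes. FPKM ranges of control and PM2.5 did not overlap for any of the 6, a separation upward that 30.9% of all tested genes showed.

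NQO1 (ENSG00000181019, GRCh38 chromosome 16, 69706996 to 69726951, minus strand) stood at 44.2, 35.9 and 30.5 FPKM in the control libraries. It stood at 183, 167 and 163 FPKM with PM2.5. In the lactoferrin then PM2.5 libraries it stood at 279, 240 and 213 FPKM. The 3 groups were fully separate, and control replicate 3, at an extreme of the third principal component, was the lowest of all. Group means were 36.9 ± 6.90, 171 ± 10.4 and 244 ± 33.3 FPKM (SD, n = 3 each). The log2 fold change with PM2.5 was 2.17 ± 0.15 (SE), with a 95% interval of 1.835 to 2.496 and a limma adjusted p of 1.04e-05. It ranked 38 among the 14454 tested genes, counted from the largest rise. Without control replicate 3 the value was 2.06.

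**Figure D1:**
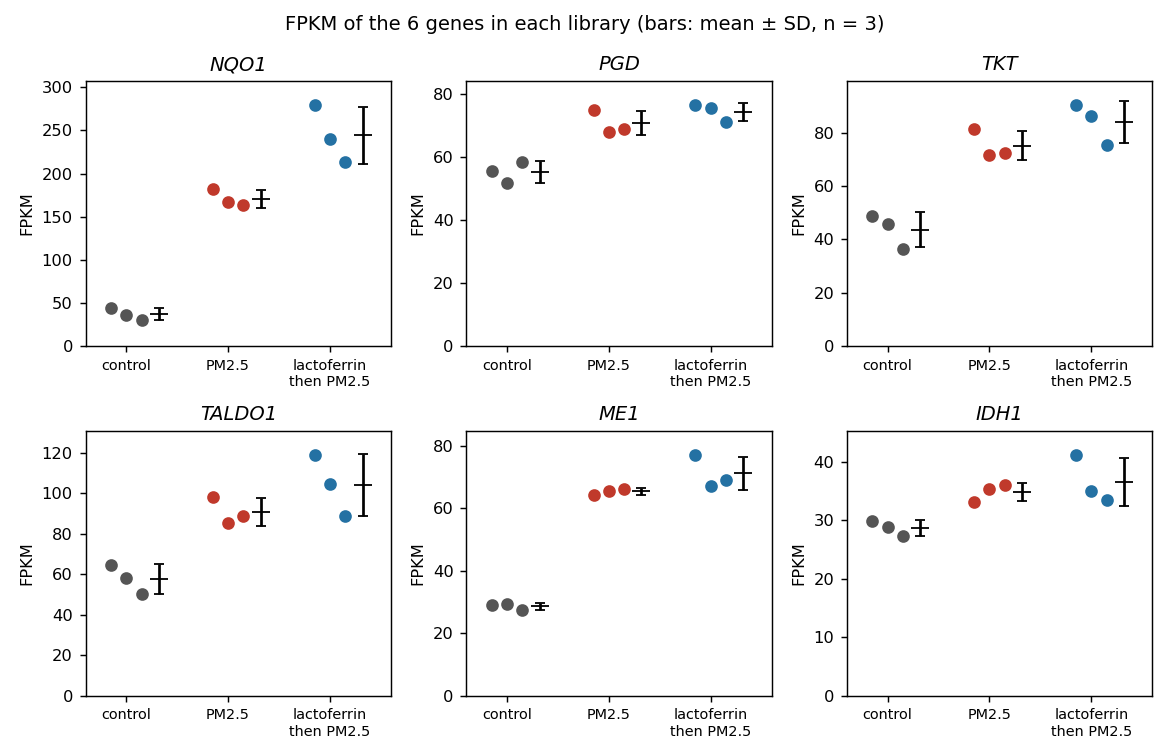
FPKM of the 6 genes (vertical axes from 0, 1 panel per gene) in the control, PM2.5 and lactoferrin then PM2.5 libraries. Each point is 1 library and the bars give the mean and SD of 3. All exposed libraries lie above all control libraries in each panel, and for NQO1 the lactoferrin then PM2.5 libraries (213 to 279) also lie above the PM2.5 libraries (163 to 183).

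In the pentose phosphate pathway, PGD is the last oxidative enzyme and yields NADPH and ribulose 5-phosphate. PGD (ENSG00000142657, chromosome 1, 10398592 to 10420144, plus strand) stood at 55.7, 51.7 and 58.5 FPKM in control, at 75.1, 68.1 and 69.1 with PM2.5 and at 76.5, 75.6 and 71.1 with lactoferrin then PM2.5. The exposed libraries were all above control, by a smaller margin than for NQO1. Its log2 fold change with PM2.5 was 0.31 ± 0.10 (95% interval 0.09 to 0.52, limma adjusted p = 0.035). That call ended with no filter on low values (adjusted p = 0.078), without control replicate 1 (0.087) or 2 (0.128), without PM2.5 replicate 1 (0.128), 2 (0.069) or 3 (0.064), and without lactoferrin replicate 2 (0.060).

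TKT, the transketolase that moves 2-carbon units between sugars, and TALDO1, the transaldolase that moves 3-carbon units, rose by larger values than PGD. TKT (ENSG00000163931, chromosome 3, 53224707 to 53256052, minus strand) stood at 48.8, 45.8 and 36.3 FPKM in control, at 81.3, 71.6 and 72.6 with PM2.5 and at 90.3, 86.2 and 75.2 with lactoferrin then PM2.5. TALDO1 (ENSG00000177156, chromosome 11, 747329 to 765024, plus strand) stood at 64.6, 58.3 and 50.2 FPKM in control, at 98.4, 85.2 and 88.8 with PM2.5 and at 119, 104 and 88.6 with lactoferrin then PM2.5. For both genes control replicate 3 was lowest and lactoferrin replicate 1 highest of all libraries. The PM2.5 log2 fold changes were 0.74 ± 0.12 for TKT (95% interval 0.46 to 1.02, limma adjusted p = 0.0018) and 0.61 ± 0.14 for TALDO1 (0.30 to 0.91, adjusted p = 0.0076). The differences in fold change between the genes were not tested.

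ME1, which turns malate into pyruvate in the cytosol and reduces NADP, had the smallest SDs of the 6 genes in control and with PM2.5 (1.03 FPKM each). ME1 (ENSG00000065833, chromosome 6, 83210389 to 83431071, minus strand) stood at 28.99, 29.5 and 27.5 FPKM in control, at 64.3, 65.7 and 66.3 with PM2.5 and at 77.2, 67.3 and 69.2 with lactoferrin then PM2.5. The 3 ranges did not overlap, though the lowest lactoferrin library (67.3) was close to the highest PM2.5 library (66.3). With PM2.5 the log2 fold change was 1.13 ± 0.08 (95% interval 0.95 to 1.31, limma adjusted p = 1.41e-05).

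IDH1, the cytosolic and peroxisomal enzyme that turns isocitrate into 2-oxoglutarate and reduces NADP, had the smallest fold change of the 6. IDH1 (ENSG00000138413, chromosome 2, 208236227 to 208266074, minus strand) stood at 29.9, 28.8 and 27.2 FPKM in control, at 33.1, 35.3 and 36.0 with PM2.5 and at 41.2, 34.9 and 33.4 with lactoferrin then PM2.5. All exposed libraries were above control, and the exposed groups overlapped. The PM2.5 log2 fold change was 0.23 ± 0.10 (95% interval 0.015 to 0.447) with a limma adjusted p of 0.090. It passed the threshold without lactoferrin replicate 1 (adjusted p = 0.019), without that library and control replicate 3 (0.025), with no scaling between libraries (0.043), with only the 6 libraries compared (0.019) and with library weights (0.0034).

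**Figure D2:**
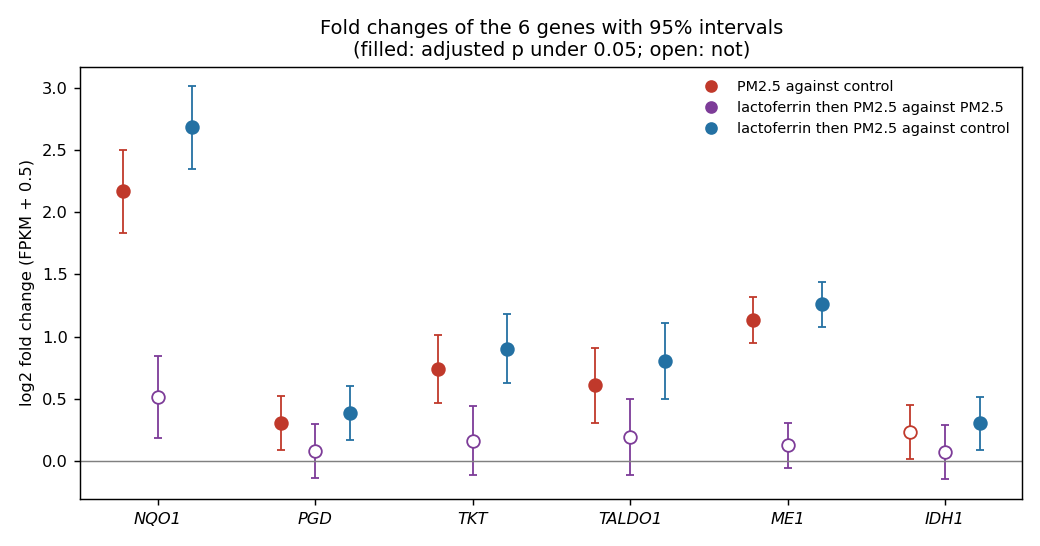
Log2 fold changes of the 6 genes on the log2(FPKM + 0.5) scale, with 95% intervals as bars, in the 3 comparisons. Filled points passed an adjusted p of 0.05 and open points did not. NQO1 (2.17) and ME1 (1.13) are the highest with PM2.5 against control, and all 6 points for lactoferrin then PM2.5 against PM2.5 are open.

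Lactoferrin then PM2.5 was next compared with PM2.5 alone. In this comparison lactoferrin and the shorter time in PM2.5 (18 h against 24 h) cannot be told apart. None of the 6 genes passed the test (0 of 6 with limma, where 0.0484% of all tested genes were called in either direction). At an unadjusted p under 0.05, 1 of the 6 was counted, NQO1, as were 1764 (12.2%) of all tested genes. Limma-voom on rebuilt reads called 0 of the 6 and 17 of all tested genes. Limma with library weights called 1 of the 6, NQO1, and 1837 of all tested genes, 974 of them higher. NQO1 was 1.43-fold higher in mean FPKM after lactoferrin, and the groups did not overlap. Its log2 difference was 0.52 ± 0.15 (95% interval 0.18 to 0.85) with a limma adjusted p of 0.307. With library weights it was 0.53 with an adjusted p of 0.012. Without lactoferrin replicate 1 it was 0.39 with an adjusted p of 0.59, and over all alternatives the adjusted p lay between 0.012 and 0.72.

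The ranges of ME1 were also apart upward, so 2 of the 6 were, a separation that 11.3% of all tested genes showed. ME1 differed by 0.13 on the log2 scale (95% interval -0.06 to 0.31, limma adjusted p = 0.487). For TALDO1 the difference was 0.20 (-0.11 to 0.50), for TKT 0.16 (-0.11 to 0.44) and for PGD 0.08 (-0.14 to 0.30). These intervals hold 0 and also hold rises of up to 0.50, so they do not show that the groups were alike. The IDH1 difference of 0.07 (-0.15 to 0.29) became -0.04 without lactoferrin replicate 1. Without that library TALDO1 differed by 0.07, TKT by 0.09, PGD by 0.04 and ME1 by 0.05.

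Lactoferrin then PM2.5 against control, which shares its control libraries with the first comparison, gave 6 of 6 genes higher (limma adjusted p under 0.05), beside 20.3% of all tested genes. Ranges were apart upward for 6 of 6, beside 26.8%. NQO1 was 6.63-fold higher in mean FPKM, and its log2 fold change in the fit was 2.68 ± 0.15 (limma adjusted p = 2.66e-06). On the same scale and with limma adjusted p in brackets, ME1 was higher by 1.26 ± 0.08 (5.65e-06), TKT by 0.90 ± 0.12 (0.00048), TALDO1 by 0.80 ± 0.14 (0.0016), PGD by 0.39 ± 0.10 (0.012) and IDH1 by 0.30 ± 0.10 (0.033). The IDH1 call ended with no filter on low values (adjusted p = 0.079), with only the 6 libraries compared (0.088) and without any of 7 single libraries. These were control replicate 1 (0.061), 2 (0.092) or 3 (0.089), PM2.5 replicate 2 (0.055) or 3 (0.055) and lactoferrin replicate 1 (0.062) or 2 (0.077). The PGD call ended without control replicate 2 (0.053).

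**Figure D3:**
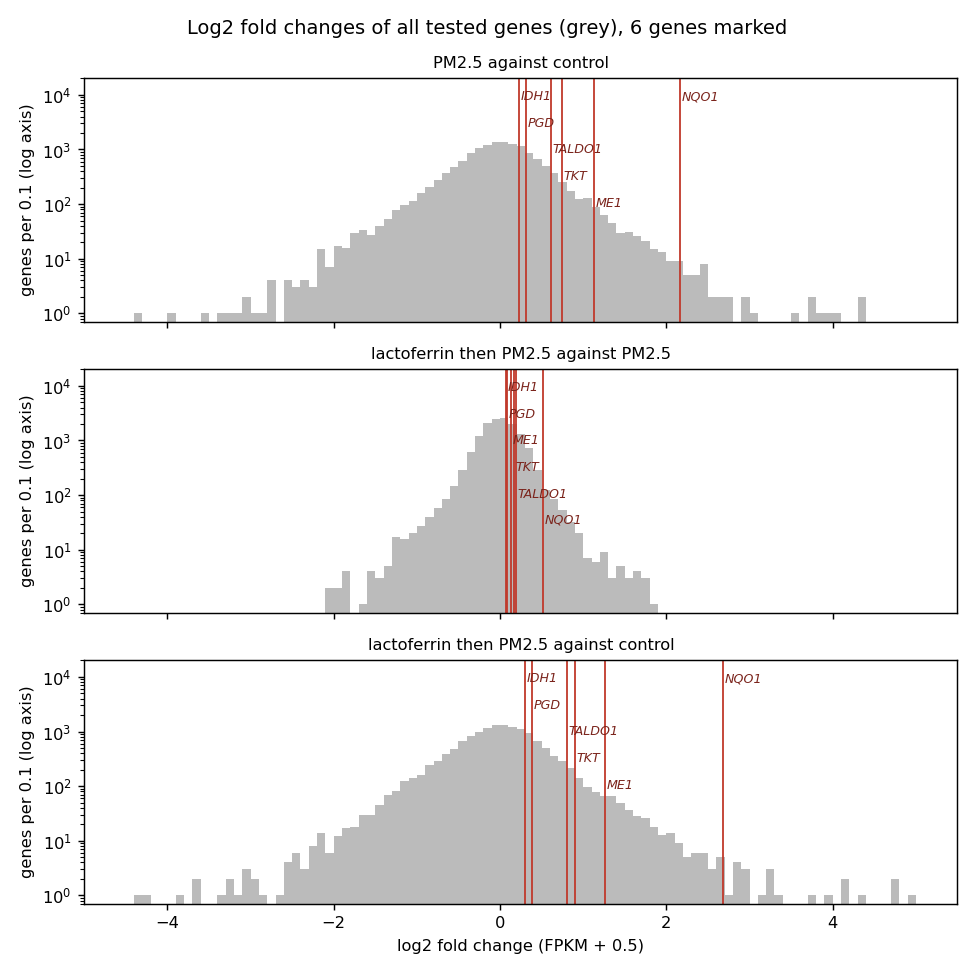
Number of tested genes (log axis) by log2 fold change in bins of 0.1 for the 3 comparisons, with the 6 genes marked as vertical lines. NQO1 lies in the upper tail with PM2.5 against control (2.17) and lactoferrin then PM2.5 against control (2.68), and IDH1 (0.23 and 0.30) is nearest to 0 of the 6.

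By level per kilobase of exon, the order of the genes changed between the groups. In control TALDO1 (57.7 FPKM) and PGD (55.3) came first, then TKT (43.6) and NQO1 (36.9), then ME1 and IDH1 (28.6 each), and within each of these pairs the ranges overlapped. With PM2.5 NQO1 (171 FPKM) led, ahead of TALDO1 (90.8), TKT (75.2), PGD (70.7), ME1 (65.4) and IDH1 (34.8), and of neighbours only TKT and PGD overlapped. After lactoferrin then PM2.5 NQO1 (244 FPKM) led and IDH1 (36.5) was last, and neighbours among TALDO1, TKT, PGD and ME1 between them overlapped. The lengths are unions of all annotated exons, 9507 bases for TKT, whose principal transcript has 3010. Per principal transcript length, a measure chosen after seeing the data, TKT ranked 1 in control and with PM2.5, and NQO1 ranked 5, 3 and 1 in the 3 groups.

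Among the 6 genes, Pearson's r of the log2 values in the 9 libraries ran from 0.80 (PGD with IDH1) to 0.99 (NQO1 with ME1). These libraries share 1 large split between control and exposed cells, which any gene that differs between them follows, so r is a description. Of 6553 candidate genes with a mean of at least 5 FPKM, the 5 most like NQO1 were MGST1 (a microsomal glutathione transferase, r = 0.999), the small GTPase RAB38 (0.997), the tRNA methyltransferase TRMT1 (0.997), TM4SF1 (0.997) and ATP1B3, a subunit of the sodium pump (0.997). MGST1 had means of 15.6, 54.4 and 68.5 FPKM in control, PM2.5 and lactoferrin then PM2.5. Most like TKT were the ferritin heavy chain FTH1 (0.998) and the creatine kinase CKB (0.996), and most like TALDO1 were HEBP1 (0.997) and BRI3 (0.994). For ME1 they were ODC1, the ornithine decarboxylase (0.996), and UGDH, which makes UDP-glucuronate (0.996). For PGD they were FXYD5 (0.995) and DDRGK1 (0.985), and for IDH1 PCCA-DT (0.982) and AK6 (0.977).

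The pentose phosphate genes reported here went both ways. Of 14 such genes 13 were tested, and with PM2.5 5 rose and 4 fell, beside 18.7% and 16.4% of all tested genes, with a median log2 fold change of 0.09. Besides the 3 described above, RPIA, the ribose 5-phosphate isomerase, rose from 9.22 ± 1.68 to 15.2 ± 0.892 FPKM (SD, n = 3 each; log2 fold change 0.67 ± 0.12, limma adjusted p = 0.0025) and TIGAR, a fructose bisphosphatase that favours the pathway, by 0.53 ± 0.10 at a level near 1 FPKM. The 4 that fell act on ribose and related sugars outside the main line. They were PRPS1, which makes the nucleotide precursor PRPP (182 ± 5.38 to 114 ± 3.99 FPKM, log2 fold change -0.72 ± 0.09), the deoxyribose phosphate aldolase DERA (-0.86 ± 0.10), the ribokinase RBKS (-0.64 ± 0.17) and the sedoheptulokinase SHPK (-0.69 ± 0.15).

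The other 4 tested genes of that list did not pass with PM2.5. These were PGLS, the lactonase of the oxidative branch (0.09 ± 0.15, limma adjusted p = 0.66), the epimerase RPE (0.12 ± 0.09, 0.342), PRPS2 (-0.19 ± 0.09, 0.121) and H6PD, which makes NADPH inside the endoplasmic reticulum (-0.30 ± 0.19, 0.265). TKTL1, a TKT relative, was not tested, at 0.198 FPKM or less. Lactoferrin then PM2.5 against PM2.5 gave 0 calls among the 13 with limma and 0 with limma-voom, and 0 at an unadjusted p under 0.05. Of all tested genes 0.0484% were called there with limma, and 12.2% had an unadjusted p under 0.05. Against control, 5 were higher and 5 lower after lactoferrin then PM2.5 (20.3% and 18.2% of all tested genes), the additional lower gene being H6PD (log2 fold change -0.61, limma adjusted p = 0.033). H6PD stood at 1.11 FPKM in lactoferrin replicate 1 and at 2.23 and 2.46 in the other lactoferrin libraries, and without replicate 1 its value was -0.36 (adjusted p = 0.020). The H6PD call ended without control replicate 1 (0.079) or 2 (0.089). The PM2.5 call of RBKS ended without control replicate 1 (0.056) or PM2.5 replicate 2 (0.064), and SHPK did not pass the filter on low values without any 1 of the control libraries.

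Of 18 genes listed under other NADPH and NADP sources, not all of which make NADPH, 17 were tested. With PM2.5 6 rose and 2 fell, beside 18.7% and 16.4% of all tested genes (median log2 fold change 0.21). Besides ME1, the mitochondrial malic enzyme ME2, which mainly reduces NAD, rose from 3.22 ± 0.237 to 5.67 ± 0.174 FPKM (SD, n = 3 each, log2 fold change 0.69 ± 0.09). MTHFD2, a mitochondrial enzyme of the folate cycle that also mainly reduces NAD, rose by 0.72 ± 0.10. The NAD kinase NADK rose by 0.37 ± 0.09, the glutamate dehydrogenase GLUD1 by 0.32 ± 0.08 and ALDH1L2, which oxidises formyl-folate, by 0.50 ± 0.17. IDH2, the mitochondrial counterpart of IDH1, fell from 36.4 ± 5.30 to 20.4 ± 0.933 FPKM (log2 fold change -0.85 ± 0.12, limma adjusted p = 0.00083). The cytosolic folate enzyme MTHFD1 fell by 0.27. The transhydrogenase NNT did not pass (-0.22 ± 0.08, adjusted p = 0.057), nor did ME3 (-0.06 ± 0.09). The ALDH1L2 call ended without control replicate 1 (limma adjusted p = 0.135) or 2 (0.102), PM2.5 replicate 1 (0.108), 2 (0.107) or 3 (0.086), or lactoferrin replicate 2 (0.060). That of MTHFD1 ended without control replicate 2 (0.053) or PM2.5 replicate 1 (0.057) or 3 (0.062), and that of NADK without PM2.5 replicate 1 (0.052).

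**Figure D4:**
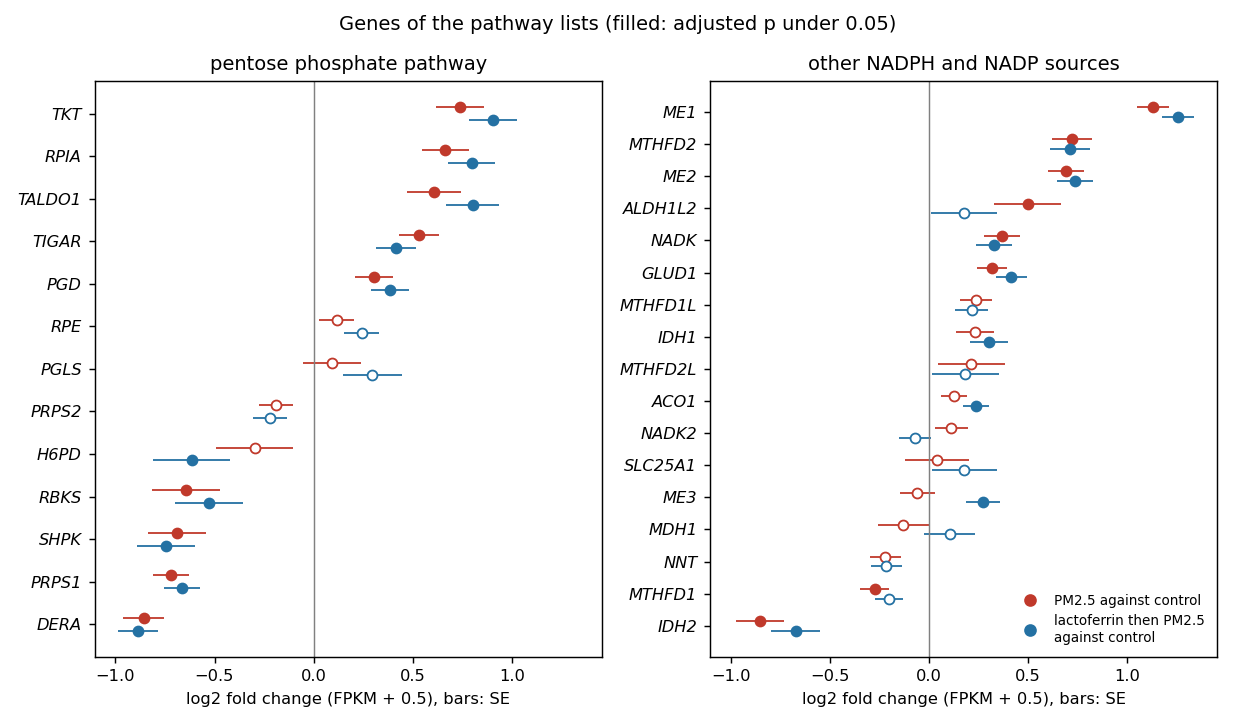
Log2 fold changes against control (horizontal axis, log2(FPKM + 0.5) scale, bars SE) of the tested genes of the pentose phosphate list (left, 13) and the list of other NADPH and NADP sources (right, 17), with PM2.5 and with lactoferrin then PM2.5. Filled points passed an adjusted p of 0.05. TKT and ME1 are highest with PM2.5 (0.74 and 1.13), and DERA and IDH2 are lowest (-0.86 and -0.85).

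None of these 17 was called for lactoferrin then PM2.5 against PM2.5 (0 with limma, 0 with limma-voom), beside 0.0484% of all tested genes with limma. At an unadjusted p under 0.05 there were 2 of the 17, a share near the 12.2% of all tested genes. For lactoferrin then PM2.5 against control 8 were higher and 1 lower (20.3% and 18.2% of all tested genes). ME3, the third malic enzyme, was called higher against control (log2 fold change 0.27 ± 0.09, limma adjusted p = 0.035), at 4.42 ± 0.219 FPKM beside 3.47 ± 0.163 in control (SD, n = 3 each). The ME3 call ended without control replicate 1 (0.071), 2 (0.088) or 3 (0.087), PM2.5 replicate 3 (0.051), or lactoferrin replicate 1 (0.068) or 2 (0.132).

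Quinone and flavin reductases other than NQO1 were also measured, and 10 of 11 listed were tested. With PM2.5 6 rose and 0 fell, beside 18.7% and 16.4% of all tested genes, with a median log2 fold change of 0.59. POR, the flavoprotein that passes electrons from NADPH to cytochromes P450, rose from 10.6 ± 0.939 to 27.6 ± 3.47 FPKM (SD, n = 3 each; log2 fold change 1.29 ± 0.11, limma adjusted p = 4.96e-05). AIFM2, which reduces ubiquinone at membranes, rose by 0.86 ± 0.12, and CYB5R1, a cytochrome b5 reductase, by 0.64 ± 0.07. NQO2, the relative of NQO1 that uses other nicotinamide donors, rose from 2.03 ± 0.266 to 3.46 ± 0.428 FPKM (0.61 ± 0.12), far below the level of NQO1.

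Among 16 tested genes of NADPH use, 9 rose and 2 fell with PM2.5, beside 18.7% and 16.4% of all tested genes (median log2 fold change 0.40). TXNRD1, the cytosolic thioredoxin reductase, rose from 38.6 ± 3.94 to 177 ± 8.22 FPKM (SD, n = 3 each; log2 fold change 2.14 ± 0.11, limma adjusted p = 2.93e-06) beside 2.17 for NQO1. The glutathione reductase GSR rose from 36.7 ± 1.76 to 65.4 ± 3.06 FPKM (0.78 ± 0.08). AKR1C3, an aldo-keto reductase, rose by 1.03 ± 0.17, but its reads may be shared with near-identical copies of the family. Of the 15 other NRF2 targets listed, which include TXNRD1 and GSR, 14 rose and 0 fell, against the same background (median 0.90), with HMOX1 at 4.01 ± 0.13, OSGIN1 at 2.19 ± 0.12 and GCLM at 1.37 ± 0.07. The exception, named after its values were seen, was TXN (0.38 ± 0.16, adjusted p = 0.092).

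Of 14 genes for NRF2, its partners and regulators 3 rose and 0 fell with PM2.5, a share of risers near the 18.7% of all tested genes. They were SQSTM1, the autophagy receptor that binds KEAP1 (24.9 ± 2.09 to 95.7 ± 9.31 FPKM, SD, n = 3 each; log2 fold change 1.87 ± 0.11), and the small MAF genes MAFG (1.45 ± 0.11) and MAFF (0.85 ± 0.07). NFE2L2, which encodes NRF2, differed by -0.31 ± 0.13 on the log2 scale (limma adjusted p = 0.091). Of the 53 tested genes of the reductase (here with NQO1), NADPH use, NRF2 target and regulator lists together, 0 were called for lactoferrin then PM2.5 against PM2.5 with limma and 0 with limma-voom, beside 0.0484% of all tested genes. At an unadjusted p under 0.05 there were 16 of the 53, beside 12.2% of all tested genes.

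Of 7 listed genes in the files that could share reads with the 6, 5 were below 1 FPKM in every library, and ME3 (3.05 to 4.66 FPKM) and NQO2 (1.76 to 5.01) were above. IDH1-AS1, on the opposite strand, overlaps 94 exon bases of IDH1 (1.99%) and reached at most 0.897 FPKM. An unnamed gene on the opposite strand, ENSG00000261602, overlaps 575 bases (17.7%) of the NQO1 exons and was at 0 in every library, so any reads of it would have been counted to NQO1 or not at all. The TKT relative TKTL2 and the pseudogene PGDP1 were at 0, and NQO1-DT stayed at or below 0.882 FPKM. The strand setting of the counting is not given in the sources used here, and opposite-strand reads cannot be told apart.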

How the data were processed

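The sample labels put 9 RNA libraries of HK-2 cells into 3 groups of 3. Per the submitters' processing notes, the authors used DESeq2 1.22.1, featureCounts 1.6.0, HISAT2 2.1.0, Trimmomatic 0.38, MultiQC, FastQC and CASAVA on build GRCh38. Not given in the sources used here were the strand setting, the annotation release and the counting of reads or fragments.

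The deposited values were FPKM, a unit inferred from the values. Multiplied by the union exon length in GENCODE release 29 (58611 of 58884 identifiers), 85.9% to 87.2% of low values (at most 200 reads) were whole within 0.05, which gave the assigned reads per library. FPKM were divided by trimmed mean of M values factors (0.942 to 1.036) computed from the rebuilt reads. Then log2(FPKM + 0.5) of the 14454 genes with at least 0.5 FPKM in at least 3 libraries was fitted over all 9 libraries with 1 mean per group in limma 3.58.1 under R 4.3.3, with trended robust eBayes and Benjamini-Hochberg adjustment. Levels are FPKM as deposited, and values written as a number of fold are ratios of their group means. Log2 fold changes come from the scaled log2(FPKM + 0.5) values, a scale that understates those of low genes. The fit was also run on simulated data without outlying libraries, which checks the code and not the results here. Figures used matplotlib 3.10.9 in Python 3.11.15.

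The 6 genes and all lists were chosen with earlier results of these data known. Named were the 6 genes, genes of the pentose phosphate and other NADPH source lists, up to 4 genes of each other list with the smallest p with PM2.5, the most similar genes by r (5 for NQO1, 2 for the others), and genes that could share reads. NQO2 was named as such a gene. Of the genes these rules select, 1 is not reported here. Promoter windows are RefSeq's on GRCh38.p14. Alternatives covered scaling, filters, pseudocounts, limma-voom, the libraries in the fit, library weights, a replicate block and leaving out each library.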

Additional observations from a re-analysis of the deposited data

How the results depend on the processing

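Across 20 alternatives, 334 of 360 fold changes of the 6 genes kept their direction and their side of the threshold, 18 lost a call, 6 gained one and 2 changed sign. The 2 were IDH1 for lactoferrin then PM2.5 against PM2.5, at -0.04 without lactoferrin replicate 1 (range -0.04 to 0.15 over single libraries left out) and -0.025 without that library and control replicate 3 together. The number of the 6 genes called for lactoferrin then PM2.5 against PM2.5 was 1 with library weights, against 0 otherwise. Leaving out single libraries gave 4 to 6 called of the 6 with PM2.5 against control, where 1963 to 3074 of all tested genes were called higher. For lactoferrin then PM2.5 against PM2.5 it gave 0. For lactoferrin then PM2.5 against control it gave 4 to 6, where 2158 to 2815 of all tested genes were called higher. The other alternatives called 2316 to 4240 higher there. Over all tested genes, library weights raised the count called with PM2.5 against control from 5076 to 7729. For lactoferrin then PM2.5 against PM2.5 they raised it from 7 to 1837, limma-voom gave 17, the 6 compared libraries alone 2, the fit without control replicate 3 and lactoferrin replicate 1 gave 12, and single libraries left out 0 to 10. The causes were not tested.

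Whether the replicate numbers of the labels pair the libraries is not settled here. Of 9 same-numbered pairs 2 correlated above 0.1 in their deviations (-0.068 to 0.179). Of 18 library and group combinations, each with 3 libraries to choose from, 12 correlated best with their own number. With the number as a replicate block, 5, 0 and 6 of the 6 genes were called in the 3 comparisons, as without it. Among all tested genes that fit called 2910 higher with PM2.5 and 13 for lactoferrin then PM2.5 against PM2.5. The NQO1 difference between lactoferrin then PM2.5 and PM2.5 stayed at 0.52, with a limma adjusted p of 0.067. Its SE was 0.07, beside 0.15 without the block. The SE also fell for TKT (0.12 to 0.07) and TALDO1 (0.14 to 0.08), but little for PGD (0.097 to 0.092), ME1 (0.081 to 0.076) and IDH1 (0.096 to 0.091).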

Other observations

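Genes listed for the supply and use of glucose 6-phosphate, the substrate of the pentose phosphate pathway, went both ways with PM2.5. The list also holds glucose transporters and enzymes that act on fructose 6-phosphate, and all 3 that fell encode phosphofructokinase or PFKFB enzymes of that later step. Of 15 listed genes 13 were tested, 4 rose and 3 fell, beside 18.7% and 16.4% of all tested genes, with a median log2 fold change of 0.16. HK2, an inducible hexokinase, rose from 11.2 ± 0.310 to 24.4 ± 0.612 FPKM (SD, n = 3 each; log2 fold change 1.05 ± 0.10, limma adjusted p = 5.79e-05). PFKFB2, which sets the level of the glycolytic activator fructose 2,6-bisphosphate, rose from 1.64 ± 0.0485 to 4.09 ± 0.142 FPKM (1.06 ± 0.10), while its relative PFKFB4 fell from 5.78 ± 0.839 to 3.72 ± 0.369 FPKM (-0.61 ± 0.10). PFKM, a phosphofructokinase subunit, rose by 0.48 ± 0.07. None of the 13 was called for lactoferrin then PM2.5 against PM2.5 (0 with limma, 0 with limma-voom, 0 at an unadjusted p under 0.05). Of all tested genes 0.0484% were called there with limma, and 12.2% had an unadjusted p under 0.05. For lactoferrin then PM2.5 against control 7 were higher and 3 lower, beside 20.3% and 18.2% of all tested genes.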
